A study of Mus musculus with 7 samples.

Results

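The semaphorin, plexin, ephrin and Eph genes were taken by symbol from mouse brain microvessel libraries. All symbols beginning with Sema3 to Sema7, Plxna to Plxnd, Efna, Efnb, Epha or Ephb followed by a digit were collected, and those with at least 100 unique molecular identifiers (UMIs, the tags that mark single captured mRNA molecules) over all libraries were kept. Of 54 matching symbols 41 reached that minimum, among the 32285 genes of the files. They were 17 semaphorins, 8 plexins, 8 ephrins, 7 Eph receptors and 1 antisense transcript, Plxna4os1. The total that chose them is a description. It ran from 111 UMIs (Epha5) and 125 (Sema3d) just inside the minimum to 82044 (Sema3c), and Ephb1 with 97, Epha1 with 60 and Sema5b with 56 fell just outside it.

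Semaphorins are secreted or membrane-bound guidance proteins, and plexins are their receptors. The secreted class 3 semaphorins mostly bind plexins of the A family together with neuropilins, class 4 semaphorins bind B-family plexins, and Sema7a is anchored to the membrane by a lipid. Ephrins are membrane-bound ligands of the Eph receptor tyrosine kinases, and both partners signal into their own cell on contact. In developing vessels ephrin-B2 marks arteries and its receptor EphB4 marks veins, and Plxnd1 is the main vascular plexin.

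The study profiled cells from 1 cerebral hemisphere of untreated C57Bl6 mice, an inbred wild-type strain, after collagenase digestion and capture on beads with an antibody to CD31, a surface protein of endothelial cells. Cerebellum, brain stem and olfactory bulbs were removed. There were 3 libraries from mice aged 12 months, with a single index and counted with Cell Ranger 4.0.0, and 4 from mice aged 3 months, with a dual index and counted with Cell Ranger 6.1.1. Age, index type, counting version and depth therefore cannot be told apart. The labels name no separate animals beyond the libraries, so the p-values measure the spread between libraries. Sexes were not balanced between the ages, since 2 of the 4 3-month libraries held 644 and 933 Xist UMIs per 1000000 UMIs and the other 5 libraries held 79.7 to 105 Ddx3y UMIs on the same scale.

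Libraries held 4049 to 10213 barcodes and 8706961 to 44861008 UMIs, and 3796 to 8919 cells a library were kept, with medians of 1094 to 5331 UMIs per cell. Pairs of libraries shared 1 to 24 barcodes. Clustering and marker genes gave 23278 capillary, 2932 arterial and 2192 venous endothelial cells, 2678 microglia (the macrophages of the brain), 1208 smooth muscle cells (the contractile cells of larger vessels) and 803 pericytes (the mural cells of capillaries). None of the 41 genes was a variable feature in the clustering. The classes still come from the same cells, so a test between classes measures the size of a difference against the spread of libraries. Levels are UMIs per 1000000 UMIs summed in a class of a library (CPM), given as mean ± SD over the 7 libraries unless stated. They compare classes for the same gene, not different genes.

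Of the 41 members, 24 reached a mean of 20 CPM in at least 1 of the 6 classes and 12 reached 100 CPM. Those 24 were 12 semaphorins, 5 plexins, Plxna4os1, 3 ephrins and 3 Eph receptors. Pericytes had 17 members at 20 CPM or more, arterial cells 15, capillary and venous cells 13 each, microglia 8 and smooth muscle cells 6. In pericytes with at most 0.5% endothelial marker UMIs, 11 members reached that level in 5 libraries, where all pericytes of the same libraries had 17. Of the 6 classes, the mean was highest in venous cells for 11 of all 41 members, in arterial cells for 8 and in microglia for 8. The mean was highest in pericytes for 6, in smooth muscle cells for 5 and in capillary cells for 3. The 3 in capillary cells were Sema3c and Sema7a, with the largest totals of all members, and Epha5, at 0.488 CPM. This tally includes members under 20 CPM in every class, such as Efna4, Efna2 and Sema3d in venous cells and Epha7 in pericytes. For many members the libraries of the highest class overlapped those of the next, as for Efnb1 and Sema4c. No such tally of all genes was set beside it, so it cannot show whether the members favour a class.

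**Figure D1:**
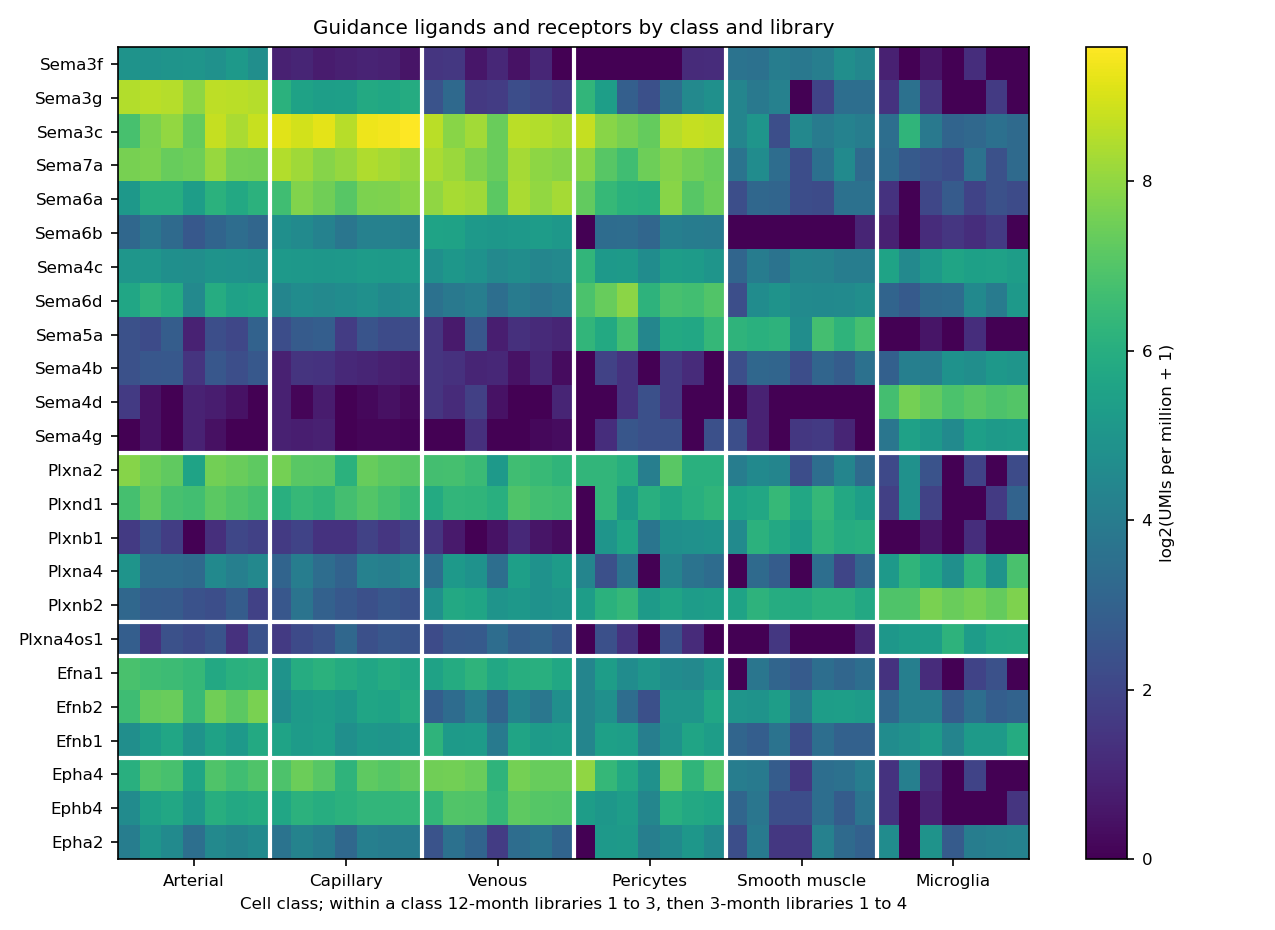
Level of the 24 members with a mean of at least 20 CPM in some class, as log2 of CPM plus 1 (colour), in each library (columns, grouped by the 6 cell classes). Sema4d, Sema4b and Sema4g stand out in microglia, Sema5a and Plxnb1 in pericytes and smooth muscle cells, and Sema3g in arterial cells.

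Along the endothelium the arterial end carried Sema3g, Sema3f, Sema6d and Efnb2, and the venous end carried Plxnb2, Sema6a, Sema6b and Ephb4. Between arterial and venous cells, 24 of the 41 members passed the filter on low counts and 19 were called by edgeR at an adjusted p under 0.05, 10 higher and 9 lower in arterial cells. Of all genes tested 43% were called, 21.4% higher and 21.5% lower. Their median log2 fold change was 0.07, against -0.01 for all genes. Between arterial and capillary cells 16 of 24 were called, 9 higher and 7 lower, against 39.3% of all genes (20.5% higher and 18.8% lower). Between venous and capillary cells 18 of 23 were called, 9 higher and 9 lower, against 42.7% of all genes (20.8% higher and 21.8% lower). A member that passed the filter only through the class where it is high had to differ, so these counts are descriptions.

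Sema3g, a secreted class 3 semaphorin (chromosome 14, 31217860 to 31230352, plus strand, GRCm38), had 249 CPM in its lowest arterial library, a median of 371 and 394 in its highest. Capillary cells ranged from 40.0 to 69.4 CPM with a median of 51.8, and venous cells from 2.02 to 8.6 with a median of 3.01. No library of one segment overlapped another segment. The means fell from 358 ± 49.2 to 51.8 ± 10.5 and 3.77 ± 2.3. The log2 fold change was 2.82 ± 0.08 (SE) for arterial against capillary cells, -3.75 ± 0.17 for venous against capillary cells and 6.57 ± 0.15 for arterial against venous cells, with edgeR adjusted p-values of 2.93e-16, 9.21e-13 and 4.95e-16.

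Efnb2 encodes ephrin-B2, the transmembrane ligand known as an arterial marker (chromosome 8, 8617434 to 8661242, minus strand). It had 89.2 to 202 CPM in arterial libraries (median 158), 24.2 to 59.2 in capillary (median 39.1) and 6.32 to 26.7 in venous libraries (median 13.1). Arterial libraries did not overlap the others, while the highest venous library lay above the lowest capillary one. Arterial cells were higher than capillary cells by 1.85 ± 0.07 on the log2 scale and than venous cells by 3.35 ± 0.10, with edgeR adjusted p-values of 3.12e-14 and 2.11e-14.

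Its receptor gene Ephb4 (chromosome 5, 137350109 to 137378669, plus strand) had the opposite order. Venous libraries held 77.7 to 146 CPM (median 126), capillary libraries 50.6 to 80.1 (median 69.9) and arterial libraries 23.9 to 63.1 (median 52.1). Venous and arterial libraries did not overlap. The arterial level was below the venous one in all 7 libraries, with a log2 fold change of -1.34 ± 0.07 and an edgeR adjusted p of 4.98e-11. Venous cells differed from capillary cells by 0.79 ± 0.06 and arterial cells by -0.52 ± 0.07, and both differences passed the test.

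Plxnb2, a B-family plexin that binds class 4 semaphorins (chromosome 15, 89155549 to 89180788, minus strand), had the lowest arterial over venous ratio of the 24 members tested. It had 27.1 to 53.8 CPM in venous libraries, 4.01 to 12 in capillary and 2.63 to 8.3 in arterial libraries, so venous libraries stood apart from both other segments. The log2 fold change of venous against capillary cells was 2.64 ± 0.11 and that of arterial against venous cells -2.92 ± 0.16, with edgeR adjusted p-values of 1.55e-13 and 5.34e-11.

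The promoters of these 4 genes are shown because Sema3g and Efnb2 fell together from the arterial to the venous end while Ephb4 and Plxnb2 rose. Each window holds 250 bases before to 50 after the start of a RefSeq transcript (GRCm38.p6), written 5′ to 3′ on the gene's strand. Capitals mark the searched motifs. The searches were GTGGGAA (the RBPJ motif of Notch signalling), ACAAAGG (SOX), AGGAAGT (ETS) and TATAA (TATA box), each on both strands.
Sema3g, chr14:31217623-31217922, plus strand: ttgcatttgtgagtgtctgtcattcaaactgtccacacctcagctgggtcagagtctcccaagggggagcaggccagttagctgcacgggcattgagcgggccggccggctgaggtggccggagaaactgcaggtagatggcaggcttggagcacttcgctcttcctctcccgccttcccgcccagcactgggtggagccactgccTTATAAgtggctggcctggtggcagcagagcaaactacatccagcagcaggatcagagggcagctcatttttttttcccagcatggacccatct
Efnb2, chr8:8661193-8661492, minus strand: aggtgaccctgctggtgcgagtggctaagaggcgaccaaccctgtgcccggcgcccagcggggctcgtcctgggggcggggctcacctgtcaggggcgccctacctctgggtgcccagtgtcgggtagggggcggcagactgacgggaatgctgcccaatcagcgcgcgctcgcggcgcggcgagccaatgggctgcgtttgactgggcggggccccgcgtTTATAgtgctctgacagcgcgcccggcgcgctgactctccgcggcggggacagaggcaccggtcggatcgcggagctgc
Ephb4, chr5:137349859-137350158, plus strand: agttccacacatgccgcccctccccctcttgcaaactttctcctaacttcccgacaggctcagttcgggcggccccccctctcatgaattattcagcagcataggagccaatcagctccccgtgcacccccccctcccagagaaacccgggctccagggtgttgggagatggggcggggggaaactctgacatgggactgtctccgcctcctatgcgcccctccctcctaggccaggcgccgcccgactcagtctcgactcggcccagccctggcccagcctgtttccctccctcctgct
Plxnb2, chr15:89180739-89181038, minus strand: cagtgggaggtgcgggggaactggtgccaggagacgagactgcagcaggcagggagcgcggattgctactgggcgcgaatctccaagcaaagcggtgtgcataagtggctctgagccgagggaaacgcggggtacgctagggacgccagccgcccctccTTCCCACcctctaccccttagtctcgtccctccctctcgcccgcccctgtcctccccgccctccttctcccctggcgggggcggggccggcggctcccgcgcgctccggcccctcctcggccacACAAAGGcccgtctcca

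In Sema3g the letters TATAA stood on the plus strand 43 bases before the start and overlapped a match on the other strand. In Efnb2 the match was on the other strand, first base 29 bases before the start. Plxnb2 held an RBPJ motif on the other strand, 91 bases before the start, and a SOX motif 33 bases after it, and its second RefSeq window held no motif. The Ephb4 window held none of the 4 motifs. Of 34 members with a RefSeq window, TATAA was found in 3 (Efnb2, Sema3g and Sema6d), SOX in 4 (Efna2, Efna4, Plxnb1 and Plxnb2), ETS in 4 (Sema3e, Sema4b, Sema4d and Sema6b) and RBPJ in 2 (Epha7 and Plxnb2). Counted by window, as some members have more than 1, 3 of 48 member windows held TATAA, 4 SOX, 4 ETS and 3 RBPJ. Of all 32851 windows of this length, 24.9% held TATAA, 5.88% SOX, 9.35% ETS and 6.38% RBPJ.

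Of the other secreted class 3 ligands, Sema3f had its highest level of the 3 segments at the arterial end, at 29.6 ± 2.7 CPM against 0.794 in capillary and 0.968 in venous cells. It was higher than in capillary cells by 5.20 ± 0.15 on the log2 scale, with an edgeR adjusted p of 1.51e-15. The unnamed endothelial cluster led by Plvap had more, at 186.8 CPM. Sema3c (chromosome 5, 17574281 to 17730268, plus strand) was highest in capillary cells, where libraries ran from 381 to 768 CPM with a median of 584. Arterial libraries ran from 110 to 445 (median 260) and venous libraries from 166 to 390 (median 322), and the ranges overlapped. Within each library the capillary level was the higher one in 7 of 7 pairs against both segments, with log2 fold changes of -1.15 ± 0.12 for arterial and -0.91 ± 0.07 for venous cells, and both passed the test. Arterial and venous levels of Sema3c did not differ by the test, at -0.24 ± 0.16 with an edgeR adjusted p of 0.252.

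The transmembrane class 6 semaphorins went in different directions. Sema6a rose toward veins, with 33.2 to 71.2 CPM in arterial libraries (median 61.6), 99.1 to 235 in capillary (median 207) and 143 to 328 in venous libraries (median 297). Arterial libraries did not overlap the others, and the arterial over venous log2 fold change was -2.32 ± 0.09, with an edgeR adjusted p of 2.46e-13. Sema6b had 8.6, 18.7 and 38.1 CPM on average in arterial, capillary and venous cells, a log2 fold change of -2.13 ± 0.11 between the ends. Sema6d had 50.7 ± 16, 23.5 ± 2.5 and 13.1 ± 2.2 CPM and was higher in arterial than in venous cells by 1.89 ± 0.11. It therefore had the reverse order of Sema6a and Sema6b.

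Sema7a, the lipid-anchored semaphorin, was spread over all segments at 200 ± 36 CPM in arterial, 297 ± 46 in capillary and 255 ± 58 in venous cells. It was lower in arterial than in capillary cells, with a log2 fold change of -0.56 ± 0.06. The venous difference of -0.19 ± 0.06 passed with an edgeR adjusted p of 0.0237, and it lost its call when any 1 of the 4 3-month libraries was left out, with adjusted p-values up to 0.0848. Sema4c, a transmembrane class 4 semaphorin, was lower in arterial (28.8 CPM) and venous cells (25.2) than in capillary cells (35.2), with log2 fold changes of -0.30 and -0.48.

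Among the plexins, Plxna2, a receptor of class 3 and class 6 semaphorins, had 45.9 to 230 CPM in arterial libraries (median 168), 69.3 to 192 in capillary (median 138) and 34.7 to 107 in venous libraries (median 92.2). The lowest library in each segment was 3-month replicate 1. Plxna2 was higher in arterial than in venous cells by 0.81 ± 0.07 (edgeR adjusted p 4.75e-08) in 7 of 7 libraries, and arterial and capillary cells differed by 0.16 ± 0.07 with an adjusted p of 0.0619. Plxnd1, which binds Sema3e and neuropilin complexes, had 101 to 155 CPM in arterial, 64.4 to 130 in capillary and 56.9 to 124 in venous libraries. Its arterial excess was 0.36 ± 0.09 over capillary and 0.43 ± 0.09 over venous cells. The former lost its call without the library term and at the finer clustering (resolution 1.0). The finer clustering also changed the classes, since a Plvap-led cluster (1318 cells) and a Ccn3-led cluster (1565 cells) were named capillary there. At resolution 0.5 the Plvap-led cluster was unnamed and a Ccn3-led cluster of 1093 cells was arterial. Plxna4 was higher in venous than in capillary cells by 1.05 ± 0.10, at 27.3 against 13.4 CPM.

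Of the ephrins other than Efnb2, Efna1, a lipid-anchored ligand of A-type receptors, had 54.5 to 112 CPM in arterial libraries (median 85.7), 29.3 to 67.8 in capillary (median 58.2) and 45.2 to 73.6 in venous libraries (median 58.3). It was higher in arterial than in capillary cells by 0.55 ± 0.12 in 7 of 7 libraries (edgeR adjusted p 0.000957). Efnb1, another transmembrane ephrin, had 39.9, 35.5 and 41.2 CPM and passed no test between segments. Ephrins under 20 CPM also differed. Efna5 had 16.7 ± 9.4 CPM in arterial cells against 0.177 in capillary cells, and Efna4 had 12.2 CPM in venous against 1.92 in arterial cells.

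Among the Eph receptors, Epha4, which binds ephrins of both types, rose toward veins. Its libraries ran from 48.5 to 122 CPM in arterial, 73.7 to 170 in capillary and 73.6 to 191 in venous cells, and all ranges overlapped. The log2 fold change of arterial against venous cells was -0.74 ± 0.09, with an edgeR adjusted p of 2.03e-06. Epha2, a main receptor of ephrin-A1, had the reverse order, at 20.7, 14.5 and 7.7 CPM, and was 1.30 ± 0.15 higher in arterial than in venous cells. Epha3 had 10.8 ± 5.5 CPM in arterial, 1.5 in capillary and 0.0896 in venous cells.

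**Figure D2:**
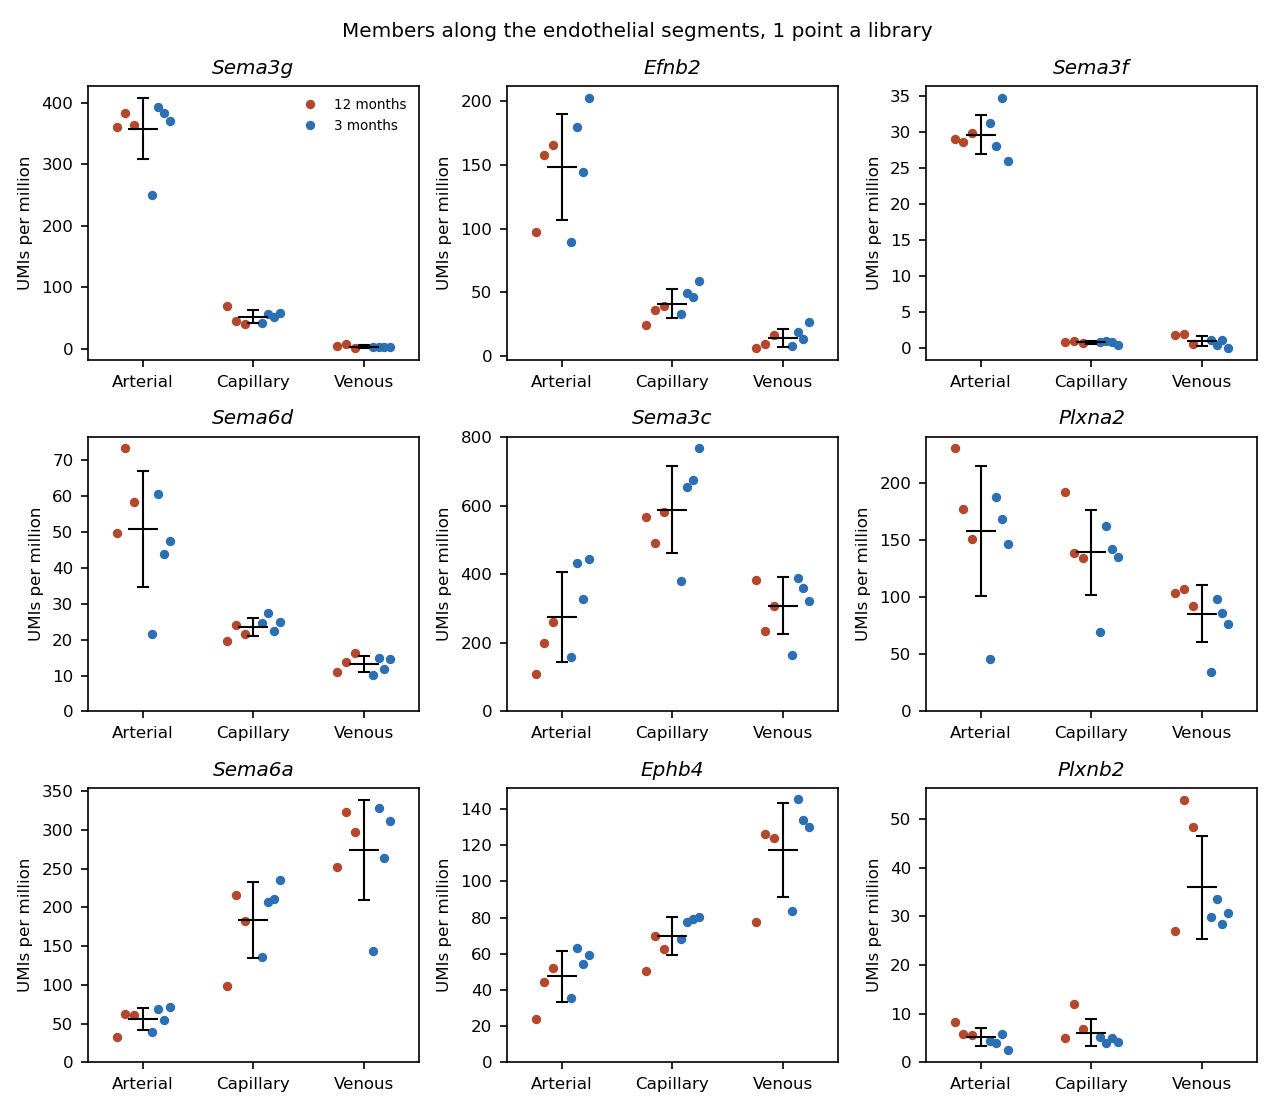
CPM (vertical axes) of 9 members in arterial, capillary and venous endothelial cells, with 1 point a library (red, 12 months; blue, 3 months) and black bars for mean ± SD over 7 libraries. Sema3g and Efnb2 fall from the arterial to the venous side, with arterial libraries of Sema3g between 249 and 394, while Sema6a, Ephb4 and Plxnb2 rise.

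**Figure D3:**
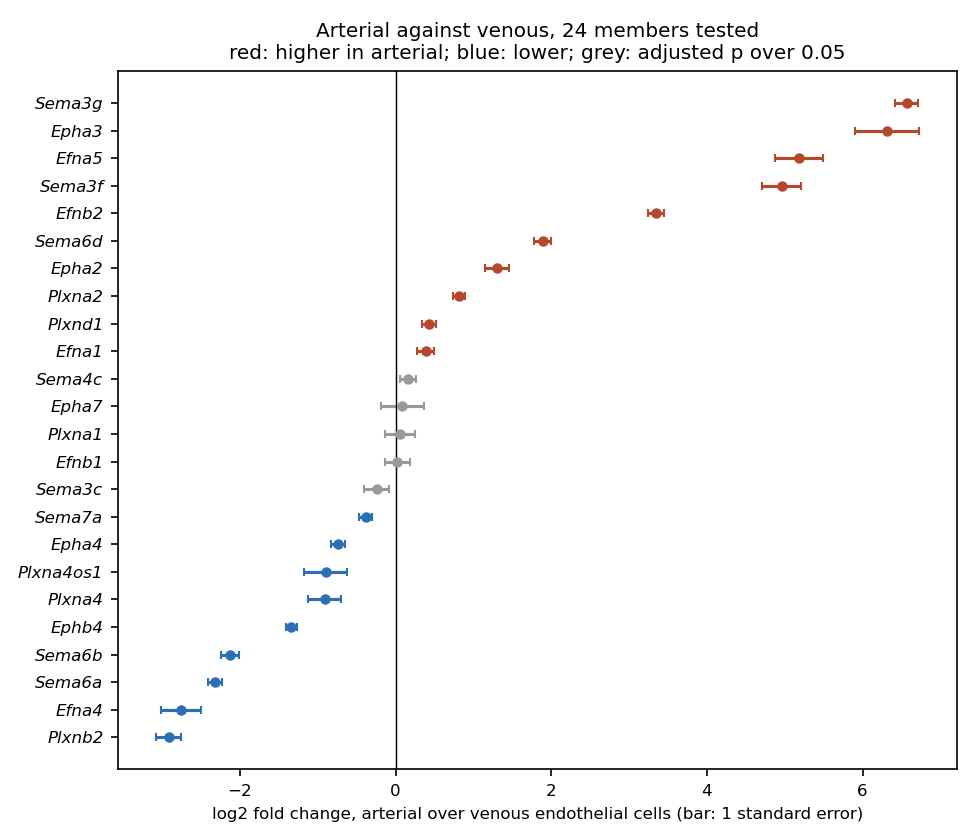
Log2 fold change of arterial over venous endothelial cells for the 24 members tested (points; bars are 1 standard error), in red where higher and in blue where lower in arterial cells by edgeR and in grey where the adjusted p was over 0.05. Sema3g at 6.57 lies at one end and Plxnb2 at -2.92 at the other.

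Capillary cells were themselves divided, as 7 clusters named capillary show. Levels over these clusters are descriptions, since the clusters come from the same cells. Sema3g was itself among the leading genes of the cluster led by Unc5b, Hey1 and Tgfb2. That cluster had 185 ± 37.7 CPM of Sema3g, 112 ± 33.6 of Efnb2, 78.1 of Sema6a and 61.7 of Ephb4. The cluster led by Cyp2e1 and F5 had 6.38 ± 2.4, 9.58 ± 3.3, 240 ± 65.1 and 77.7 CPM of the same genes. A cluster led by Cdkn2b, which also raised Car4, lay between them, with 13.8, 25.1 and 159 CPM of Sema3g, Efnb2 and Sema6a. Of the clusters described here, Sema3g and Efnb2 were highest in the first and Sema6a in the second.

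A small capillary cluster led by Apln and Kit, present with enough cells in 4 libraries, had the highest Plxnd1 of the capillary clusters at 343 ± 59.7 CPM, with 95.6 ± 35.9 CPM of Sema6d and 42.8 ± 14.5 of Epha2. Apln encodes the peptide apelin and is known from sprouting endothelium. Among arterial clusters, the one led by Cytl1 and Fbln5 had 70.9 ± 17.3 CPM of Efna5, 84.9 ± 53.4 of Plxna4, 78.8 ± 23.7 of Sema3f and 165 ± 48.7 of Efna1, and 22.8 ± 16.9 CPM of Sema3c. The cluster led by Gkn3 and Vegfc had 279 CPM of Sema3c and 13.6 of Efna5, and that led by Ccn3 had 355 and 3.45. Efna5 and Sema3c thus had opposite orders across the arterial clusters.

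Pericytes carried Sema6d, Sema5a and Plxnb2 above the capillary level. Against capillary cells, 14 of the 19 members tested were called, 4 higher and 10 lower, where 26.2% of all genes were called (12.8% higher and 13.4% lower), and the median log2 fold change was -0.62 against -0.01 for all genes. This count and the later one against smooth muscle cells are descriptions too, for the reason given for the endothelial segments. Endothelial and erythroid markers were also found in the pericyte class. The summed level of 8 endothelial markers was 7270 to 13230 CPM in pericyte libraries (median 11860), against 15860 to 20920 in capillary and 653 to 1813 in smooth muscle libraries, while the 8 pericyte markers summed to 10230 to 28750 CPM in pericytes. None of the 8 endothelial markers was at 0. The 5 erythroid markers summed to 63.6 to 13320 CPM in pericyte libraries (median 8318), against medians of 2850 in capillary and 70.0 in smooth muscle libraries, and none was at 0. Of 803 pericytes, those with at most 0.5% endothelial marker UMIs were therefore also summed alone, in 5 libraries. From this sum 12-month replicate 1, with 29 pericytes in all, and 3-month replicate 1 dropped out for too few cells. In it the endothelial markers summed to 623.5 to 2013 CPM and the erythroid markers to 58.6 to 895.7.

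Sema6d, a transmembrane class 6 semaphorin, had 72.5 to 242 CPM in pericyte libraries, with a median of 117, and was higher than in capillary cells in 7 of 7 libraries by 2.47 ± 0.16 (edgeR adjusted p 1.41e-12). In the pericytes with few endothelial UMIs it had 347 ± 45.7 CPM (n = 5), against 148 in all pericytes of the same libraries. Sema5a, a transmembrane semaphorin with thrombospondin repeats (chromosome 15, 32244810 to 32696341, plus strand), had 20.1 to 103 CPM in pericytes and 24.8 to 107 in smooth muscle cells, and at most 4.27 CPM on average in the 3 endothelial segments and microglia. The unnamed endothelial cluster led by Plvap, outside the compared classes, had 20.1 ± 6.7 CPM of it. It was higher in pericytes than in capillary cells by 3.82 ± 0.19 (edgeR adjusted p 1.31e-14), and reached 188 ± 78.5 CPM in the pericytes with few endothelial UMIs. Both genes thus had higher levels in the pericytes with few endothelial UMIs. Levels are shares of all UMIs, so genes scarce in endothelial cells rise when barcodes rich in endothelial RNA are left out. The 8 pericyte markers rose too, to 33940 to 42920 CPM in the 5 libraries.

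Among receptors, Plxnb2 had 36.2 to 81.7 CPM in pericytes and 46.6 to 72 in smooth muscle cells, and was higher in pericytes than in capillary cells by 3.07 ± 0.19. In pericytes with few endothelial UMIs it had 119 ± 10.8 CPM. Plxnb1, its close relative and a receptor of Sema4d, had 55.3 ± 18 CPM in smooth muscle cells, 25.3 ± 16 in pericytes and at most 2.22 in the 3 endothelial classes. Epha2 was higher in pericytes than in capillary cells by 0.85 ± 0.18, at 23.7 against 14.5 CPM, and in 6 of 7 libraries.

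The 10 members lower in pericytes than in capillary cells included Sema3c, Sema7a, Sema6a and Epha4. In the 5 libraries, Sema3c had 328 CPM in all pericytes and 18.5 ± 18 in pericytes with few endothelial UMIs, Sema7a 161 and 15.6, Sema6a 139 and 8.06, and Epha4 102 and 0.727. Efnb2, Sema3g and Efna1 were at 2.42, 1.77 and 0.727 CPM in the latter cells. These cells were chosen by low endothelial markers, so a lower level of genes high in endothelial cells follows from the choice. The comparison therefore cannot tell where the level in the pericyte class comes from, and this was not tested. Epha4 lost its call against capillary cells without 12-month replicate 2 (edgeR adjusted p 0.0634).

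Between pericytes and smooth muscle cells 15 of 17 members tested were called, 11 higher and 4 lower in pericytes, against 50.7% of all genes (26.3% higher and 24.4% lower), and the median log2 fold change was 1.38 against 0.03. Of the 11, Sema6a (3.92), Sema3c (3.87), Sema7a (3.31) and Epha4 (2.97) had the largest log2 fold changes. Each of these members had a lower level in the pericytes with few endothelial UMIs. Sema6d was 2.21 ± 0.17 higher in pericytes (edgeR adjusted p 1.63e-10) and 3.57 higher in the pericytes with few endothelial UMIs. With those pericytes 7 members passed the filter and 6 were called, of which 3 had the same call with all pericytes. Plxnb1 was lower in pericytes, with a log2 fold change of -1.29 ± 0.18 with all pericytes and had 0.06 ± 0.26 (adjusted p 0.885) with the others, so the call and its sign did not hold in the cells with few endothelial UMIs. Sema5a and Plxnb2 were called lower in all pericytes, with log2 fold changes of -0.56 and -0.57, and were called higher with few endothelial UMIs, at 0.91 ± 0.19 (edgeR adjusted p 2.42e-05) and 0.69 ± 0.21 (0.00581). Efnb2 had a log2 fold change of -0.59 ± 0.22 in all pericytes and lost its call without 12-month replicate 3, 3-month replicate 2 or 3-month replicate 3, with adjusted p-values up to 0.096.

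In smooth muscle cells 6 members reached 20 CPM. The highest semaphorin was Sema5a at 75.2 ± 28 CPM, and the plexins were Plxnb2 at 61.6 ± 9.3, Plxnd1 at 59.5 ± 17 and Plxnb1 at 55.3 ± 18, with Efnb2 at 33.3 ± 9.0 and Sema6d at 21.6 ± 8.2. Sema3f, with 16.3 ± 5.3 CPM in smooth muscle cells, lay between its arterial and capillary levels.

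**Figure D4:**
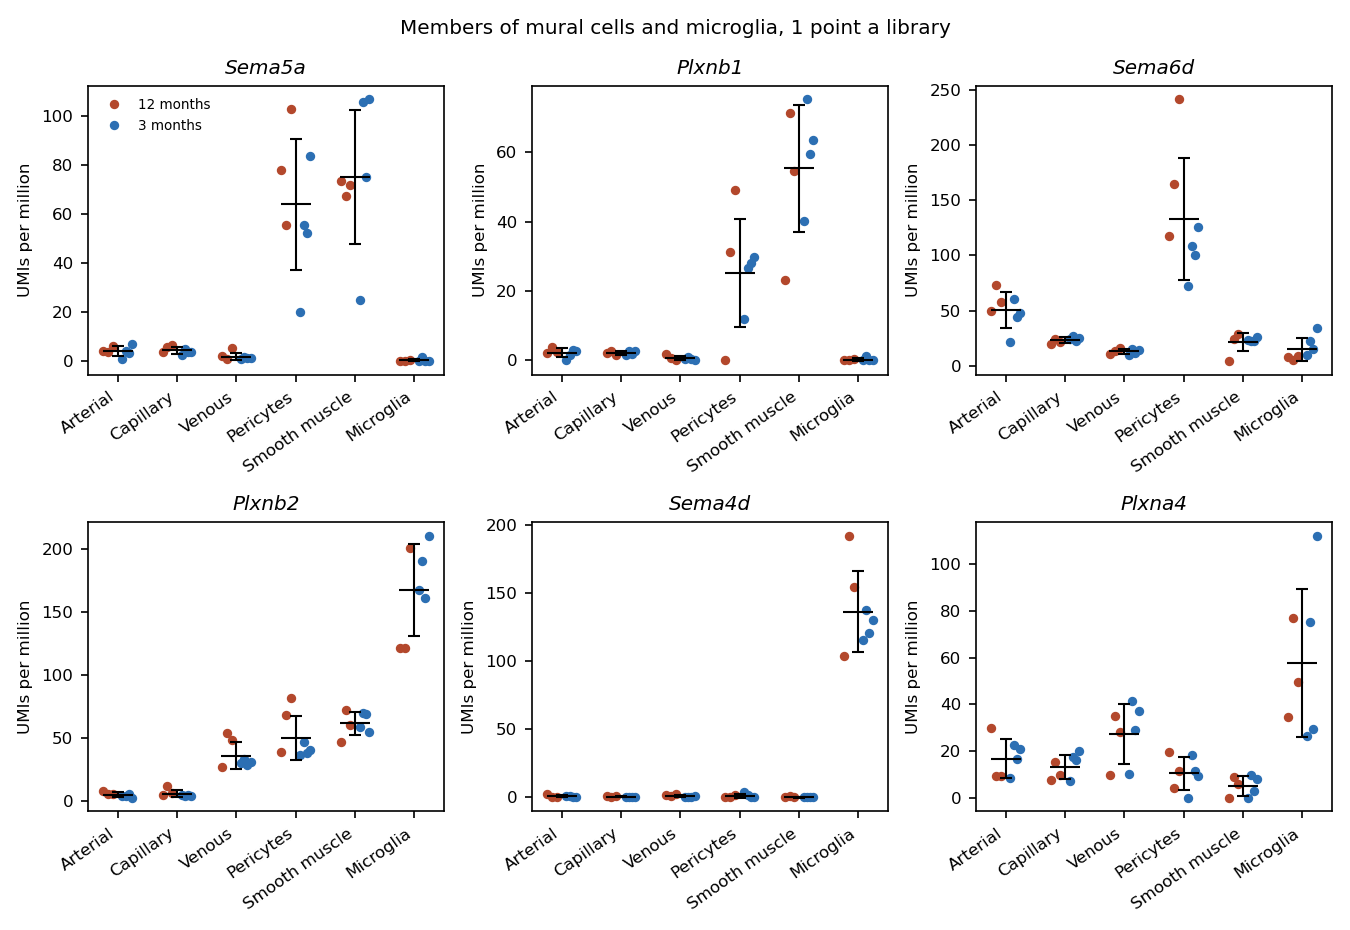
CPM (vertical axes) of 6 members in the 6 cell classes, with 1 point a library (red, 12 months; blue, 3 months) and black bars for mean ± SD. Sema5a and Plxnb1 stand above their endothelial levels in pericytes and smooth muscle cells, and Sema4d, Plxnb2 and Plxna4 have their highest mean in microglia, where Sema4d ranges from 104 to 192.

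Microglia carried the class 4 semaphorins Sema4d, Sema4g and Sema4b and the plexins Plxnb2 and Plxna4 above the capillary level, and 3 of the 5 plexins tested, Plxna2, Plxnd1 and Plxna1, were lower than there. Against capillary cells, 19 of the 22 members tested were called, 6 higher and 13 lower, where 70% of all genes were called (32.7% higher and 37.3% lower), with a median log2 fold change of -2.79 against -0.06. Sema4d, a transmembrane semaphorin of immune cells and ligand of Plxnb1 and Plxnb2 (chromosome 13, 51685529 to 51793747, minus strand), had 104 to 192 CPM in microglia, with a median of 130, and at most 1.10 CPM on average in the other 5 classes. Its log2 fold change over capillary cells was 9.02 ± 0.25 (edgeR adjusted p 3.12e-14). It was also found in B cells, at 42.7 ± 23.6 CPM (n = 6), and in T and NK cells, at 56.5 ± 15.9 (n = 3).

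Sema4g had 32.5 ± 11 and Sema4b 22.5 ± 9.8 CPM in microglia, higher than in capillary cells by 6.98 ± 0.45 and 4.46 ± 0.32. Of the receptors, Plxnb2 had 121 to 210 CPM in microglia with a median of 167, above every library of the other 5 compared classes, and was 5.00 ± 0.20 higher than in capillary cells (edgeR adjusted p 1.38e-12). Outside these classes, choroid plexus epithelium had 137.1 to 257 CPM of Plxnb2 (n = 3). Plxna4 had 57.9 ± 32 CPM and Plxna4os1 46.8 ± 14. The antisense transcript (chromosome 6, 32511073 to 32515576, plus strand) lies within Plxna4 (32144268 to 32588192, minus strand), and no source used here says whether counting used strand, so reads from the overlap cannot be told apart.

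The 13 members lower in microglia included the endothelial receptors Ephb4 (-6.19) and Epha4 (-6.17) and the ligands Sema6a (-5.74), Sema3c (-5.38) and Sema7a (-5.37) on the log2 scale. Sema6d, with a log2 fold change of -0.67 ± 0.23 (edgeR adjusted p 0.0157), lost its call without 12-month replicate 3 (adjusted p 0.0876). Summed endothelial markers in microglia were 208.6 to 1573 CPM, and the part of such RNA in the remaining levels was not tested. Sema3c also had 296 CPM in erythroid cells (n = 4) and 41.5 in B cells, against 19.5 ± 25 in microglia. Efnb1 had 34.0 ± 13 CPM in microglia and 35.5 in capillary cells, a log2 fold change of -0.02 ± 0.17 with an edgeR adjusted p of 0.937, and Sema4c 39.7 ± 8.8 and 35.2, at 0.27 ± 0.12 and 0.0644.

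Between the ages few members passed the test. In capillary cells 2 of 29 members tested were called, both higher at 12 months, against 4.07% of all genes (2.81% higher), and 8 had an unadjusted p under 0.05. In venous cells 1 of 24 was called, higher at 12 months, against 2.35% of all genes (1.95% higher). No member was called in arterial cells (0 of 24, 2 with an unadjusted p under 0.05, 0.412% of all genes), pericytes (0 of 18, 3 and 2.18%), smooth muscle cells (0 of 16, 2 and 0.191%) or microglia (0 of 8, 1 and 2.05%) by edgeR, and DESeq2 called 0 in each of these 4 classes. Depth per cell was lower in 12-month libraries, and index type and counting version changed with it.

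The ephrin that passed in both classes was Efna2, a lipid-anchored ligand of A-type Eph receptors (chromosome 10, 80179482 to 80190010, plus strand). In capillary cells it had 5.01, 3.12 and 1.58 CPM in the 12-month libraries and 0.391, 0.0507, 0.0883 and 0 in the 3-month libraries. In venous cells it had 8.13, 12.1 and 11.1 against 0.374, 0.378, 0.753 and 0 CPM. The ages did not overlap in either class, as for 3.93% of all genes in capillary and 2.2% in venous cells that were called without overlap. These are low counts, 66 against 7 UMIs in capillary and 69 against 7 in venous cells, and 3 counts would have been 0.179 and 0.748 CPM in the libraries at 0. The log2 fold change was 4.76 ± 0.66 in capillary (edgeR adjusted p 0.00198) and 4.63 ± 0.48 in venous cells (8.23e-05). Both calls remained without any 1 library, with adjusted p-values up to 0.0151 and 0.00325, and the gene fell under the filter when the libraries were thinned to the smallest sum.

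In arterial cells Efna2 had 9 UMIs at 12 months and 0 at 3 months and was under the filter. In smooth muscle cells the ages overlapped, at 2.19 ± 1.99 and 2.97 ± 1.76 CPM (SD, n = 3 and n = 4). Efna4, a further lipid-anchored ephrin, was higher at 12 months in capillary cells by 1.73 ± 0.43 (edgeR adjusted p 0.0466), at 4.79 ± 2.92 against 1.58 ± 0.48 CPM. The ages overlapped, and its adjusted p ran from 0.00359 to 0.434 as single libraries were left out, with the call lost in 5 of the 7 cases: 12-month replicate 1, 12-month replicate 2, 3-month replicate 2, 3-month replicate 3 and 3-month replicate 4.

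The more abundant members did not pass between the ages in capillary cells. Plxnd1 had 75.5 ± 10.3 CPM at 12 months and 108 ± 17.3 at 3 months, without overlap, and a log2 fold change of -0.42 ± 0.18 with an edgeR adjusted p of 0.261. Plxna2 had 0.35 ± 0.26 (adjusted p 0.544), Epha4 0.26 ± 0.24 (0.658), Sema6a -0.15 ± 0.26 (0.841), Sema3c -0.09 ± 0.22 (0.897) and Sema7a 0.04 ± 0.19 (0.954). Summed microglial markers in capillary cells were 79.1 to 192.8 CPM at 12 months and 37.8 to 54.5 at 3 months, and endothelial markers 19610 to 20920 against 15860 to 18210. Arterial markers there were 737.8 to 886.1 CPM at 12 months against 470.7 to 653.6 at 3 months. Astrocyte markers went the other way, at 31.8 to 42.4 against 64.5 to 87.9 CPM, as did oligodendrocyte markers, at 5.85 to 7.25 against 11.8 to 61.5. In venous cells microglial markers were 41.7 to 112 CPM at 12 months and 31.3 to 41.5 at 3 months, and arterial markers 618.5 to 897.7 against 361.3 to 539.7. Venous markers were 5856 to 8898 against 4513 to 5269, and capillary markers 4902 to 6474 against 7022 to 8076. In pericytes the pericyte markers were 16050 to 28750 CPM at 12 months against 10230 to 13540 at 3 months. Capillary markers in pericytes were 5516 to 8728 against 10690 to 12270. In arterial cells capillary markers were 2947 to 6873 CPM at 12 months against 6938 to 9192 at 3 months, and microglial markers 66.2 to 180.5 against 30.3 to 64.9. In microglia the microglial markers were 22870 to 27540 against 28580 to 37100. In smooth muscle cells fibroblast markers were 89.2 to 152 against 244 to 362, and microglial markers 54.0 to 217 against 24.8 to 42.6. The part of these marker shifts in the age differences, or in the lack of calls, was not tested.

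**Figure D5:**
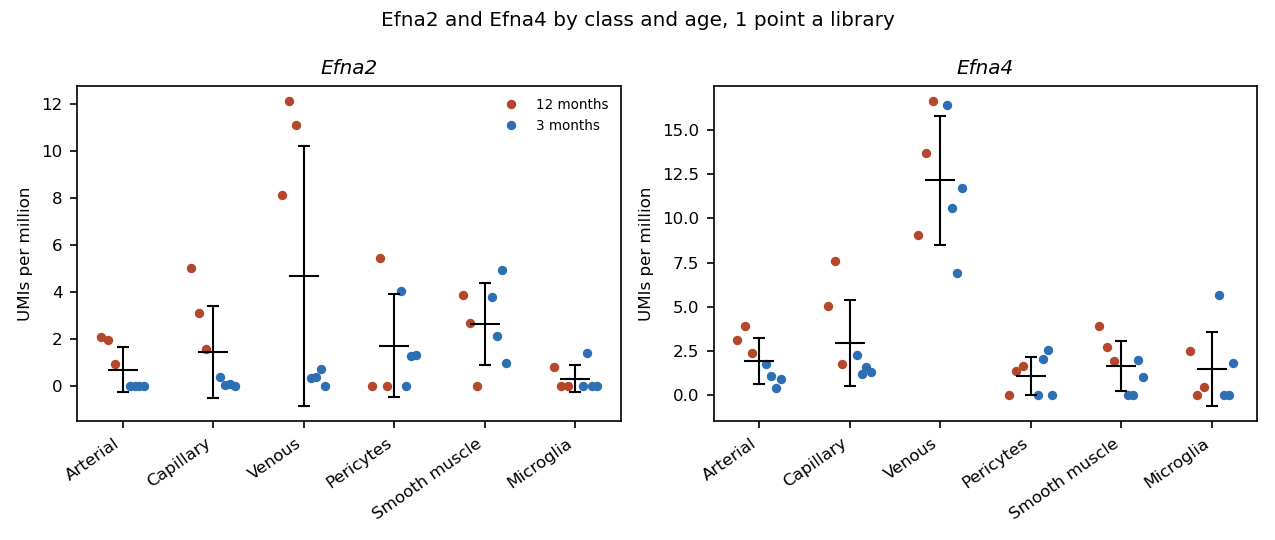
CPM (vertical axes) of Efna2 and Efna4 in the 6 cell classes, with 1 point a library (red, 12 months; blue, 3 months) and black bars for mean ± SD. The 12-month venous libraries of Efna2 sit between 8.13 and 12.1, all above the 3-month libraries.

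Partners of these families were followed in 3 lists, of 14 co-receptors and other receptors, 32 plexin effectors and 36 effectors and proteases of ephrins and Eph receptors. Between arterial and venous cells 4 of 8 tested co-receptors were higher and 2 lower, 11 of 26 plexin effectors higher and 4 lower, and 6 of 28 Eph and ephrin effectors higher and 10 lower, where 21.4% of all genes were higher and 21.5% lower. Nrp2, a neuropilin that binds class 3 semaphorins and VEGF-C, had 330 to 557 CPM in venous libraries, 53.7 to 108 in capillary and 6.92 to 21.1 in arterial libraries, and the segments did not overlap. Its log2 fold change of arterial against venous cells was -5.42 ± 0.13 (edgeR adjusted p 6.89e-16). Nrp1, the neuropilin of VEGF-A and Sema3a, was 0.66 ± 0.07 higher in arterial than in venous cells, at 167 against 102 CPM, and Kdr, the VEGF receptor that complexes with both, had a log2 fold change of -1.37 ± 0.09. Nrp1 was highest in capillary cells, at 206 CPM. The neuropilins were thus opposed between the arterial and venous ends, while both were higher in capillary than in arterial cells.

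Between venous and capillary cells 3 of 24 plexin effectors were higher and 15 lower, against 20.8% and 21.8% of all genes. Of the co-receptors 1 of 9 was higher and 3 lower, and of the Eph and ephrin effectors 7 of 29 were higher and 5 lower. Between arterial and capillary cells 8 of 26 plexin effectors were higher and 7 lower, against 20.5% and 18.8% of all genes. There 3 of 8 co-receptors were higher and 4 lower, and 6 of 27 Eph and ephrin effectors higher and 9 lower. Rnd3, a small GTPase that binds plexins, was 2.94 ± 0.17 higher in arterial than in capillary cells. Pericytes had 10 of 25 plexin effectors higher and 3 lower than capillary cells, against 12.8% and 13.4% of all genes. Their Eph and ephrin effectors went the other way, with 3 of 27 higher and 9 lower, and 3 of 7 co-receptors were higher and 3 lower. Microglia had 7 of 26 plexin effectors higher and 12 lower, against 32.7% and 37.3% of all genes. They had 6 of 27 Eph and ephrin effectors higher and 17 lower, and 2 of 8 co-receptors higher and 6 lower. Plxdc2, a membrane protein with a plexin-like domain, was 7.75 ± 0.19 higher in pericytes and 8.66 ± 0.30 higher in microglia than in capillary cells on the log2 scale. Between the ages 3 of 9 co-receptors and 3 of 26 plexin effectors were higher at 12 months in capillary cells, against 2.81% of all genes. They included Trem2 and Tyrobp (3.00 and 2.63), genes of microglia, with 6.02 and 7.24 CPM in capillary cells and 2363 and 2485 in microglia. Summed microglial markers in capillary cells were also higher at 12 months, and the part of microglial RNA in these calls was not tested. None of the 30 Eph and ephrin effectors tested was called between the ages in capillary cells. In venous cells Rnd1, another small GTPase of the Rnd family, was 3.59 ± 0.38 higher at 12 months, at 168 ± 108 against 15.3 ± 4.15 CPM, with an edgeR adjusted p of 8.23e-05.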

How the data were processed

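The deposited files give UMI counts that are not normalized, for each gene in each barcode, and per the file headers Cell Ranger wrote them for the authors, 4.0.0 where mice were aged 12 months and 6.1.1 where they were aged 3 months. The submitters' processing notes also name mm10 and Seurat. No source used here states how cells were called or whether intronic reads and strand were used. The members, gene lists, tests and alternatives were chosen with earlier results of these data known.

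Barcodes with at least 500 genes and at most 15% mitochondrial UMIs were kept, and doublets were removed by scrublet score (scanpy 1.11.5) at 0.8% per 1000 barcodes. Cells were integrated and clustered with Seurat 5.3.0 in R 4.3.3 (2000 variable features, 30 components, resolution 0.5), endothelial cells a further time, and clusters were named from marker genes, at least 3 of them raised 2-fold. Counts were summed per library and class of at least 20 cells and compared by the two-sided quasi-likelihood test of edgeR 4.0.16 (filterByExpr, TMM, Benjamini-Hochberg over all genes, threshold 0.05), with the library as a term between classes and age alone between ages. In counts simulated for arterial against capillary cells, 86% of 2-fold and 96% of 4-fold changes were recovered with 7 false calls among 10263 genes, and for age in capillary cells 47% and 99% with 8 among 12253. The simulated counts had the same dispersion for every gene and no library effect. These shares therefore do not give the recovery or the false calls of the tests on the real counts. Members named with values passed the threshold with at least 20 CPM in a class, up to 12 a comparison by fold change, or had 100 CPM. For age they passed without overlap, or had 100 CPM in capillary cells, and Efna4, called with overlap, was named after its values were seen. Members under 20 CPM, clusters and partner genes named were chosen after their values were seen. Alternatives were leaving out each library, a replicate block (between ages), age in place of the library term (between classes), DESeq2 1.42.0 and no filter. Others were at least 1000 genes per cell, more doublets removed, resolution 1.0, thinned sums and pericytes with at most 0.5% endothelial UMIs. Removal of the shallow capillary cluster led by Lars2 and Ivns1abp was chosen after seeing the data. Gene positions are from the GENCODE annotation of GRCm38. Counting limits cover counting error only.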

Additional observations from a re-analysis of the deposited data

Results flagged for a closer look

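In 5 of 72 groups of 4 3-month libraries for members with a mean of at least 20 CPM in a class, 1 library stood apart by a gap above the 95% critical value, where chance gives about 1 in 20. Sema7a in arterial cells had 276.2 CPM in 3-month replicate 2, and the others had 176.6 to 192.8. Sema3g in arterial cells had 249.3 CPM in 3-month replicate 1 against 370.7 to 393.5 in the others. The same library had the lowest Plxnb1 in pericytes, at 12.08 CPM against 26.68 to 29.69, and the lowest Efnb2 in smooth muscle cells, at 15.25 against 37.7 to 40.64. Sema6d in smooth muscle cells had 25.8 CPM in 3-month replicate 4 against 22.71 to 22.87. In none of 102 class differences with at least 20 CPM in either class did every library of one age move opposite to every library of the other.

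Levels in cells outside the comparisons were also above the highest library of any of the 6 classes. An endothelial cluster of 1318 cells led by Plvap and Esm1 stayed unnamed at resolution 0.5, because fewer than 3 markers were raised. At resolution 1.0 a Plvap-led cluster was named capillary. The unnamed cluster had 307.4 CPM of Plxnd1 (lowest library 211.9, against at most 155.1 in the 6 classes) and 161.4 of Efna1 (134.4 against 112). It also had 223 CPM of Efnb1 (101.1 against 74.96) and 186.8 of Sema3f (121.5 against 34.6), each as the mean of 7 libraries. Choroid plexus epithelium, which makes cerebrospinal fluid, had 84.2 CPM of Sema3b (n = 3, lowest 65.04, against at most 8.929). T and NK cells had 55.11 CPM of Sema4a (n = 3, lowest 41.39, against at most 5.5).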

How the results depend on the processing

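Of 104 calls of members over all comparisons, 84 held under every alternative in which the member passed the filter. An alternative in which a member fell under the filter gave no value and was not counted as a loss. That was so for Sema3c, Sema6a, Sema7a and Epha4 in pericytes of few endothelial UMIs against smooth muscle cells, and for Efna2 in thinned sums. Of 1423 values, 1376 kept direction and call, 44 lost the call and 3 reversed. The reversed ones are Plxnb1, Plxnb2 and Sema5a in pericytes against smooth muscle cells, with log2 fold changes of 0.0593, 0.6913 and 0.9113 among pericytes of few endothelial UMIs. With 1 library left out, the members called numbered 16 to 18 (arterial against capillary), 16 to 20 (venous against capillary), 18 to 20 (arterial against venous), 13 to 16 (pericytes against capillary), 12 to 16 (pericytes against smooth muscle) and 17 to 22 (microglia against capillary). For the ages they numbered 1 to 3 in capillary, 0 to 1 in arterial, 1 in venous, 0 to 2 in pericytes and 0 in smooth muscle cells and microglia. The arterial 1 was without 3-month replicate 1 (Efna1), and in pericytes 1 was called without 12-month replicate 1 and 2 without 3-month replicate 1 (Sema6d and Sema6a).

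Pericytes against smooth muscle cells gave 23 members with no filter on low counts and 6 with pericytes of few endothelial UMIs, where 7 passed the filter, against 15. The ages in capillary cells gave 1 with the replicate block, at resolution 1.0 and without the shallow cluster, 4 with DESeq2 and with no filter, and 0 thinned to the smallest sum, against 2. Venous cells gave 0 when thinned, and pericytes 1 with no filter and 1 at resolution 1.0. Same-numbered libraries of the ages had correlations of -0.05 to 0.21 in capillary, 0.0125 to 0.191 in arterial and 0.0215 to 0.18 in venous cells. Libraries of different number had -0.168 to 0.133, -0.198 to 0.0882 and -0.167 to 0.0661 in the same classes. So few pairs cannot tell whether the numbers pair the ages, and the labels do not say. The replicate block is therefore an alternative only.

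Over all genes, calls with age in place of the library term fell from 4030 to 2083, 4737 to 2569 and 4397 to 2664 in the 3 endothelial comparisons. With few endothelial UMIs they went from 2518 to 4023 (pericytes against capillary) and 3848 to 2250 (against smooth muscle). For age in capillary cells 499 became 201 with the replicate block, 817 with no filter, 261 thinned and 276 to 929 with 1 library left out. Over all alternatives run, the counts for age went from 42 to between 14 and 157 in arterial cells, from 244 to between 87 and 448 in venous cells, from 172 to between 9 and 435 in pericytes, from 16 to between 4 and 105 in smooth muscle cells and from 141 to between 70 and 384 in microglia. Without the filter the median log2 fold change of all genes moved to -0.16 in pericytes against capillary cells and -0.30 in microglia against capillary cells, and with few endothelial UMIs to -0.17 in the former. Depth limits members under a few CPM. The causes were not tested.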

Other observations

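The endothelial cluster led by Plvap, a protein of fenestrated and immature endothelium, held further members at high levels beside those already given. Efnb2 had 217 CPM there, Sema6d 206 and Plxna2 302 (means of 7 libraries), against 148, 50.7 and 158 in arterial cells, and Epha4 had 31.8 CPM against 98.3. Because these cells were set apart by clustering the same data, the values are descriptions.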
